A study of Mus musculus and Homo sapiens with 10 samples.

Results

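The 10 genes described here encode the enzymes that take glucose to lactate and the carrier that exports lactate from the cell: Hk2, Gpi1, Pfkl, Aldoa, Tpi1, Pgk1, Pgam1, Eno1, Ldha and Slc16a3. They were chosen by name, with earlier results of these data known. All 10 were found among the 25899 genes of the mouse table and, as HK2, GPI, PFKL, ALDOA, TPI1, PGK1, PGAM1, ENO1, LDHA and SLC16A3, among the 35720 genes of the human table. RNA-seq had been done on 4 untreated control and 4 vitC-treated cultures of the mouse embryonic stem cell (mESC) line E14, and on 1 control and 1 vitC-treated culture of the human embryonic stem cell (hESC) line H9, both of them established lines. Treated cells received vitC (ascorbate) at 100 µg/ml for 24 h. All mESC cultures were grown without serum in 2i medium, which holds LIF, the MEK inhibitor PD-035901, the GSK3 inhibitor CHIR-99021 and sodium pyruvate, and the study's methods state that they were feeder-free. The hESC cultures are labelled H9 and grew in KSR medium with FGF. For that medium the study's methods name primed H9-NK2 cells, which carry KLF2 and NANOG transgenes under doxycycline control. Each mESC control shared its replicate number and culture label with 1 treated culture (VC10, VC11, VC35B and VC35C for replicates 1 to 4), so the libraries form 4 pairs.

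Glycolysis breaks glucose down to pyruvate in the cytosol. Its first steps consume ATP to phosphorylate the sugar and split it into triose phosphates, its later steps return ATP, and lactate dehydrogenase then reduces pyruvate to lactate, which regenerates the NAD+ that the pathway needs. Lactate leaves the cell with a proton through monocarboxylate carriers. Pluripotent stem cells are known for a high rate of glycolysis in the presence of oxygen. Many genes of the pathway are known targets of HIF, the hypoxia-inducible transcription factor, whose alpha subunits are marked for destruction by prolyl hydroxylases. These hydroxylases need iron and 2-oxoglutarate and, like other enzymes of their class, work better with vitC. HIF binds DNA at a short core sequence, ACGTG or GCGTG.

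In vitC-treated mESCs, 8 of the 10 genes were lower than in the paired control in 4 of 4 pairs. Over all 14631 genes tested, 14.4% had this pattern, a share that does not allow for the choice of the genes with earlier results known. The means of the 8 ranged from 20.3% of control for Slc16a3, the lactate exporter MCT4, and 57.4% for Ldha, the lactate dehydrogenase A subunit, to 88.9% for Pgam1. The Slc16a3 value rests on few reads, with 6.94% to 36.9% in the single pairs and 31.8% without control replicate 4. The enzymes of the first and second steps, Hk2 and Gpi1, had means of 109% and 109.8% of control. Ldha alone was past the threshold when the libraries were compared as 2 groups of 4, and the 8 lower genes were past it when each vitC library was set against its own control. Over all tested genes, 0.0205% were past it as lower in the first comparison and 4.44% in the second.

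Promoter sequences of the 4 genes with the lowest vitC level relative to control are shown with the core that HIF recognises marked. The 10 were chosen by name and many genes of the pathway are known HIF targets, so the choice was not independent of this core. The 4 were picked after their values were seen. Each window runs from 250 bases before to 50 bases after the transcription start in RefSeq (GRCm38.p6), on the strand of the gene, and the first listed start is used where a gene has several. Capitals mark ACGTG or GCGTG on either strand (CACGT and CACGC are the reverse complements), and overlapping matches are joined, so that CACGTG, which is also the E-box read by MYC and other factors, is 1 stretch. Ldha lies at chr7:46845554-46845853 on the plus strand, Slc16a3 at chr11:120948817-120949116 on the plus strand, Pfkl at chr10:78009758-78010057 on the minus strand and Tpi1 at chr6:124814109-124814408 on the minus strand.
Ldha: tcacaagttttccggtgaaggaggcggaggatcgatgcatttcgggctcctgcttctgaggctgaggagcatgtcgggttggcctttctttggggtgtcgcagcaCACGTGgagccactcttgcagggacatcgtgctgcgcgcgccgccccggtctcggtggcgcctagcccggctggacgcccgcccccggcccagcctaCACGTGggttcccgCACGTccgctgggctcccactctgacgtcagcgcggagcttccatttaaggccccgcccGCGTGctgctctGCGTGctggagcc
Slc16a3: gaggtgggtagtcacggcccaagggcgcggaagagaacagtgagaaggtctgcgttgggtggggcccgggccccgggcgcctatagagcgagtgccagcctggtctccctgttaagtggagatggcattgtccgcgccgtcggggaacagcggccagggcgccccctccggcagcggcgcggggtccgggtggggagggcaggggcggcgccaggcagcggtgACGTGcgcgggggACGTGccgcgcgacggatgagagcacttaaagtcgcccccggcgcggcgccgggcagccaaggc
Pfkl: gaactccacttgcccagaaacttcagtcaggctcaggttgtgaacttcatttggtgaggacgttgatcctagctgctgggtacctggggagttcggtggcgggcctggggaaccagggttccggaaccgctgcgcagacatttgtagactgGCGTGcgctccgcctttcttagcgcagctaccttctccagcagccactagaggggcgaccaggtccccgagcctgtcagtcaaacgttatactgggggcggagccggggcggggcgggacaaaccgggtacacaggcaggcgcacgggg
Tpi1: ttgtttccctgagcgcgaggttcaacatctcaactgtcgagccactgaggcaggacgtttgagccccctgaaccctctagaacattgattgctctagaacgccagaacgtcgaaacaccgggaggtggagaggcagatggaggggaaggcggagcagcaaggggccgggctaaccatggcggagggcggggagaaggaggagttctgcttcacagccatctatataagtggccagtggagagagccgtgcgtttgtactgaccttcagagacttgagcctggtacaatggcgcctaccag
The Ldha window held 5 such stretches, of which 2 were the full CACGTG. At least 5 stretches were found in 0.767% of the 32851 promoter windows of the mouse table. The window of the other Ldha start, at chr7:46846832-46847131, held 2 stretches, and at least 2 were found in 17.3% of windows. The Slc16a3 window held 2 stretches, close together just before the start, the Pfkl window held 1 and the Tpi1 window held 0. At least 1 stretch was present in 43.8% of all windows, in 12 of the 15 windows of the 10 genes, and in at least 1 window of 8 of the 10 genes, beside 46.7% of all genes. The 2 genes without a match were Gpi1 and Tpi1, while Hk2, which was not lower with vitC, held 2. Of the other glycolytic genes and carriers described below, Pfkp and Slc16a1 held 4, Gapdh 3 and Ldhb 1. Windows of Hk1 held 0 and 4, of Pkm 0 and 2, and of Pfkm 0 to 2. When each vitC library was set against its own control, Slc16a1 and Pkm passed the threshold as lower. Hk1, Pfkp and Pfkm passed it as higher. The shares over all windows and genes were not matched for base composition or for the number of starts per gene. Some windows of Aldoa and of Eno1, genes with 3 windows each, overlap and hold the same stretches. A match is a description of the letters in the window, and the binding of HIF was not measured.

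Values below are given as normalised reads, which are the whole reads recovered from the deposited variance-stabilised values divided by the size factor of the library. The recovered gene reads were between 4489804 and 6921305 per control mESC library and between 3354852 and 5826923 per vitC library. Differences and tests are on the deposited variance-stabilised scale, on which a difference of 1 log2 unit appears as close to 1 for genes with many reads and as less than 1 for genes with few. The main test was limma on 4 against 4 libraries with Benjamini-Hochberg adjustment over 14631 genes and a threshold of 0.05, and the same fit with the replicate number as a term (the paired fit) is given where it alters a call. In bulk RNA, fewer cells of a kind and less RNA per cell cannot be told apart.

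The mESC libraries held their defining markers. The summed level of 12 naive and core pluripotency genes, such as Pou5f1, Nanog and Esrrb, was between 6068 and 6374 RPM (reads scaled to a common library total) in control and between 5719.7 and 6339 RPM in vitC libraries, and 0 of the 12 were without reads. In the paired fit 2 of them were higher with vitC (Tfcp2l1 and Dppa3) and 5 lower (Pou5f1, Nanog, Zfp42, Klf2 and Lin28a), the lowest being Nanog at 83.2% of control (adjusted p = 0.000647). Of 6 primed pluripotency genes, Zic2 and Lin28b were lower in that fit, at 86.4% and 68.8% of control, and 0 were higher. Fibroblast markers summed to between 8.29 and 19.5 RPM in control and between 15.6 and 21.3 RPM in vitC libraries, with Dcn at 0, and 2 of 6 tested were higher in the paired fit, Pdgfra and Col6a3, the latter with 1 read over the controls and 27 over the vitC libraries and past the threshold in both fits (limma adjusted p = 0.0215 between the 2 groups). Primitive endoderm markers summed to between 2.09 and 5.97 RPM over the 8 libraries with Afp at 0, and early lineage markers to between 27.2 and 52.0 RPM with Neurog2 and Hand1 at 0. Of these, 0 of 5 and 0 of 8 tested genes were past the threshold in either fit. The part that these markers play in the differences below was not tested.

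The first enzymes of the pathway phosphorylate glucose and prepare it for a second phosphate. Hk2 (chromosome 6, 82725025 to 82774454 of GRCm38, minus strand) encodes hexokinase 2, which traps glucose in the cell as glucose 6-phosphate. It was at 2729.6, 2659.8, 2392 and 2479 normalised reads in control replicates 1 to 4, and at 2940.4, 3229, 2569 and 2475 in the vitC libraries with the same numbers. The vitC library was higher in 3 of 4 pairs and at 99.8% of its control in replicate 4, and the groups overlapped. The difference of 0.12 (standard error 0.09, limma adjusted p = 0.835) was not past the threshold, nor was it in the paired fit (standard error 0.04, limma adjusted p = 0.0619). Gpi1 (chromosome 7, 34201330 to 34230336, minus strand) encodes glucose-6-phosphate isomerase, which turns glucose 6-phosphate into fructose 6-phosphate. Its controls were at 1592, 1426, 1315 and 1403 normalised reads and its vitC libraries at 1669, 1777, 1375 and 1478. The vitC library was higher in 4 of 4 pairs, at 105% to 125% of control, with groups that overlapped. Between the 2 groups the value was 0.12 higher (standard error 0.09, limma adjusted p = 0.823), and the paired fit did not pass the threshold either (limma adjusted p = 0.0699). With edgeR on recovered reads and the replicate number as a term, both Hk2 and Gpi1 were higher (adjusted p = 0.0375 and 0.0417).

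Pfkl (chromosome 10, 77986947 to 78010083, minus strand) encodes the liver-type subunit of phosphofructokinase, which carries out the committed and most regulated step. The control libraries held 413, 467, 397 and 521 normalised reads and the vitC libraries 318, 323, 272 and 276. Each vitC library lay below each control, so the groups did not overlap, and the mean went from 449 ± 56.1 to 297 ± 27.0 (SD, n = 4). The difference was -0.45 (standard error 0.08), with a limma adjusted p of 0.0558 for the 2 groups and of 2.34e-05 in the paired fit. The relative level was lowest in replicate 4, at 52.9% of control, and highest in replicate 1, at 77.0%.

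Aldolase and triose phosphate isomerase split the sugar and interconvert the products. Aldoa (chromosome 7, 126795234 to 126800751, minus strand), the ubiquitous aldolase, was at 3908, 3879.6, 4941 and 5507 normalised reads in control and at 3308, 3501, 4493 and 4676 in vitC libraries. Within each pair vitC was lower, at 84.7% to 90.9% of control, but the groups overlapped because replicates 3 and 4 were higher than replicates 1 and 2 in both conditions. The difference was -0.18 (standard error 0.14, limma adjusted p = 0.837, and 0.000779 in the paired fit). Tpi1 (chromosome 6, 124810586 to 124814296, minus strand), which converts one triose phosphate into the other, had 786, 776, 919 and 1299 normalised reads in control and 583, 654, 726 and 857 with vitC. Again each vitC library was below its own control and the groups overlapped. The difference of -0.35 (standard error 0.15) gave a limma adjusted p of 0.631, and of 6.26e-05 in the paired fit. Aldoart1 and Aldoart2 are near copies of Aldoa, and reads shared between them cannot be told apart. They held 1123 and 524 recovered reads in control and 797 and 405 in vitC libraries, before correction for size factors. In normalised reads they were at 87.0% and 95.4% of control, and they did not pass the threshold in either fit.

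**Figure D1:**
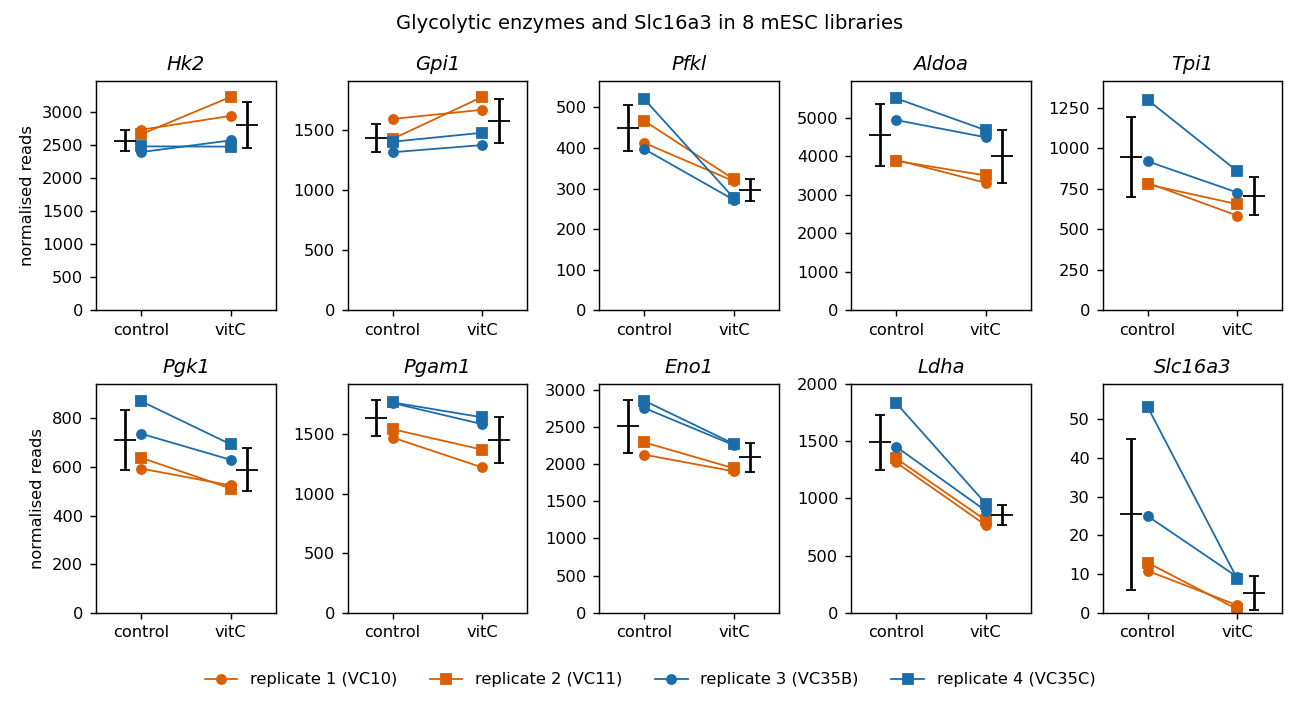
Normalised reads (y axis, from 0, 1 scale per gene) of the 10 genes in control and vitC mESC libraries, with lines joining libraries of the same replicate number and black bars for the mean ± SD of 4 libraries. The lines fall in 4 of 4 pairs for 8 genes, rise in 4 of 4 for Gpi1 and in 3 of 4 for Hk2, and the VC35 cultures (blue) start higher than VC10 and VC11 (orange) for Aldoa, Tpi1, Pgk1, Pgam1, Eno1, Ldha and Slc16a3.

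The enzymes between the triose phosphates and pyruvate had smaller differences than Ldha. Pgk1 (chromosome X, 106187100 to 106203699, plus strand), phosphoglycerate kinase, which makes the first ATP of the pathway, was at 594, 638, 737 and 871 normalised reads in control and at 524, 511, 629 and 693 in vitC libraries. Pgam1 (chromosome 19, 41911923 to 41918660, plus strand), phosphoglycerate mutase, was at 1471, 1540.5, 1760.3 and 1765 in control and at 1219, 1368, 1582 and 1640.0 with vitC. Both were lower in 4 of 4 pairs, and for both the control and vitC ranges overlapped. Eno1 (chromosome 4, 150236721 to 150248879, plus strand) encodes enolase 1, which forms phosphoenolpyruvate. Its levels were 2126, 2291, 2754 and 2852 in control and 1901, 1942, 2252 and 2269 with vitC. The pairs were at 79.6% to 89.4% of control for Eno1, 79.6% to 88.3% for Pgk1 and 82.9% to 92.9% for Pgam1. On the variance-stabilised scale the differences were -0.22 (standard error 0.12) for Pgk1, -0.16 (standard error 0.10) for Pgam1 and -0.24 (standard error 0.10) for Eno1. None of these 3 passed the threshold between the 2 groups (limma adjusted p = 0.732, 0.775 and 0.631), and each did in the paired fit (limma adjusted p = 0.00165, 0.00756 and 0.00017). With 1 pair left out in turn, the adjusted p of Pgam1 in the paired fit reached 0.0484.

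The largest difference among the enzymes was at the last step. Ldha (chromosome 7, 46841475 to 46855627, plus strand) encodes the subunit of lactate dehydrogenase that favours the reduction of pyruvate to lactate. Control replicates 1 to 4 had 1314, 1349, 1451 and 1833 normalised reads, and vitC replicates had 764, 808, 890.2 and 952. The highest vitC library was thus below the lowest control. The pairs were close to each other, at 58.1%, 59.9%, 61.3% and 51.9% of control. The mean went from 1487 ± 238 to 854 ± 84.2 (SD, n = 4), and the variance-stabilised difference was -0.71 (standard error 0.10, limma adjusted p = 0.0221, and 1.16e-09 in the paired fit). With 1 library left out, the call between the 2 groups was lost without control replicate 2 (adjusted p = 0.0511), control replicate 3 (0.0956), vitC replicate 1 (0.0965), vitC replicate 2 (0.101) or vitC replicate 3 (0.0608). The difference stayed between -0.76 and -0.61 over these fits, and in the paired fit the call was kept whichever pair was left out.

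Slc16a3 (chromosome 11, 120948480 to 120960868, plus strand) encodes MCT4, a low-affinity monocarboxylate carrier typical of cells that export much lactate. It was the least expressed of the 10. Its recovered reads were 13, 13, 22 and 72 in control and 2, 1, 6 and 8 in vitC libraries, which are 10.8, 12.9, 24.99 and 53.2 normalised reads and 1.93, 0.898, 9.21 and 8.65. Each vitC library was below each control, and control replicate 4 held 72 of the 120 control reads. Pooled over the libraries and corrected for size factors, vitC was at 16.9% of control, with a 95% interval of 9.51% to 28.1% that covers counting error only. Its mean was at 20.3% of control, and at 31.8% without control replicate 4. The difference on the compressed variance-stabilised scale was -0.45 (standard error 0.14, limma adjusted p = 0.405, and 0.000343 in the paired fit). On the reads, edgeR with the replicate number as a term gave a log2 fold change of -2.39 (standard error 0.33).

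Of the 10 genes, 1 was lower and 0 were higher in the comparison of 2 groups, in which 0.0205% of the tested genes were lower and 0.321% higher. In the paired fit 8 were lower and 0 higher, beside 4.44% of genes lower and 6.36% higher. On recovered reads and with the replicate number as a term, edgeR passed 8 of the 10 as lower and 2 as higher, beside 6.07% and 7.24% of genes, and DESeq2 passed 8 as lower, beside 1.11%. Without that term DESeq2 passed Ldha and Pfkl as lower, beside 0.123% of genes. The vitC libraries all lay below all controls for 3 of the 10, Pfkl, Ldha and Slc16a3, and for 1.98% of tested genes. The median difference of the 10 was -0.23 on the variance-stabilised scale, and that of all tested genes -0.00. The reads of the 10 together were between 2907 and 3635 RPM in control and between 2561 and 2988 RPM in vitC libraries.

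**Figure D2:**
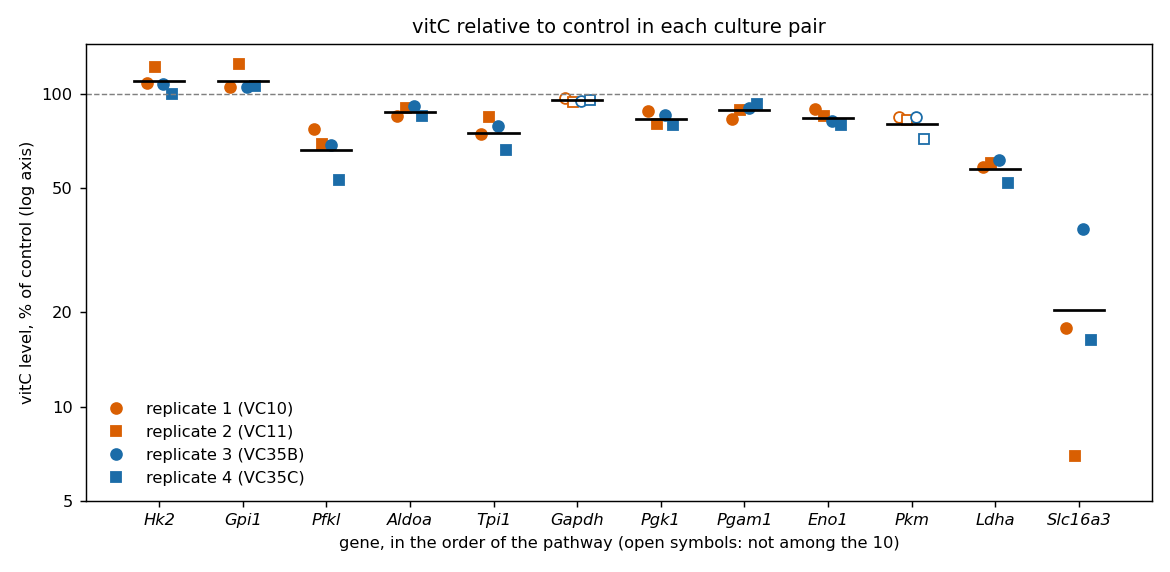
Level in the vitC library as a percentage of the control library of the same pair (y axis, log scale) for 12 genes in the order of the pathway, with 4 points per gene and a black bar for the ratio of the means. Hk2 and Gpi1 lie between 99.8% and 125%, the genes from Pfkl on lie below it, Gapdh sits closest to it, and Ldha and Slc16a3 lie lowest beside Pfkl.

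Gapdh and Pkm encode the other 2 enzymes on the direct route to pyruvate. Gapdh, glyceraldehyde-3-phosphate dehydrogenase, was at 945, 996, 890.4 and 956 normalised reads in control and at 918, 934, 846 and 909 in vitC libraries. The pairs were at 93.7% to 97.1% of control, and the difference of -0.06 did not pass the threshold in the paired fit (limma adjusted p = 0.33). Pkm, pyruvate kinase of muscle and dividing cells, was at 5956, 6175, 6312 and 7665 in control and at 4999.6, 5079, 5299.9 and 5484 with vitC. Here the groups did not overlap, and the difference of -0.31 was past the threshold in the paired fit only (limma adjusted p = 1.04e-05, and 0.292 between the 2 groups). Over the 8 libraries Pkm was the gene outside the 10 whose values were most like their mean (Pearson r = 0.983), followed by Snrnp27 (0.979), Ykt6 (0.973), Nudt8 (0.969) and Chrnd (0.969). Most like Ldha were Scfd1 (0.988), Morf4l2 (0.987), Hsp90b1 (0.981), Fbln7 (0.978) and Pkm (0.974). These values describe 8 libraries that share treatment groups, culture sets and scaling, out of 14631 genes. On the variance-stabilised scale Fbln7 (mean 6.32 in control and 6.13 with vitC) and Chrnd (6.39 and 6.18) lay near the lowest value, 6.13. The r of these genes thus rests on few reads.

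Several steps have more than 1 gene. Of 13 further tested glycolytic genes, 3 were higher in the paired fit and 1, Pkm, was lower, with a median difference of -0.03. The 3 were Hk1, at 121% of control (limma adjusted p = 0.00052 in the paired fit), and the phosphofructokinase genes Pfkp at 119% (0.00407) and Pfkm at 122% (0.0077). Ldhb, whose subunit favours the oxidation of lactate, was at 2043, 1867, 1516 and 1601 normalised reads in control and at 2206, 2038, 1633 and 1705 with vitC. It was higher in 4 of 4 pairs without passing the threshold in the paired fit (limma adjusted p = 0.0626).

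The balance within a step was measured as the log2 ratio of reads of 2 genes in the same library, with 0.5 reads added to each. Library scaling hardly alters such a ratio for genes with many reads. For Slc16a3, with few reads, the added 0.5 makes the ratio depend on depth. The Ldha to Ldhb ratio was -0.64, -0.47, -0.06 and 0.20 in control replicates 1 to 4 and -1.53, -1.33, -0.87 and -0.84 in vitC replicates. The vitC values were all below the controls, and the mean ratio was lower by 0.90 on the log2 scale (-0.24 ± 0.38 to -1.14 ± 0.34, SD, n = 4, exact permutation p = 0.0286). The Slc16a3 to Slc16a1 ratio likewise did not overlap, with -5.41 ± 0.69 in control and -7.30 ± 1.12 with vitC (difference -1.89, SD, n = 4, exact permutation p = 0.0286). Slc16a1 encodes MCT1, the widely expressed carrier, and was itself lower in 4 of 4 pairs, at 71.6% of control (limma adjusted p = 0.6, and 1.46e-06 in the paired fit). The Slc16a3 ratio rests on few reads and depended on the scale, with a difference of -0.97 (exact permutation p = 0.0571) at a pseudocount of 5 reads in place of 0.5. The Pfkl to Pfkp ratio went from -1.15 ± 0.33 to -1.97 ± 0.57 (difference -0.82, n = 4, exact permutation p = 0.0571) and the Hk2 to Hk1 ratio from 1.41 ± 0.14 to 1.25 ± 0.05 (difference -0.16, n = 4, exact permutation p = 0.114). All 4 ratios were lower in 4 of 4 pairs. The tests were two-sided over 70 labellings, for which 0.0286 is the smallest p, and after Benjamini-Hochberg adjustment over the 4 ratios the exact permutation values were 0.0571, 0.0571, 0.0762 and 0.114, none past the threshold.

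**Figure D3:**
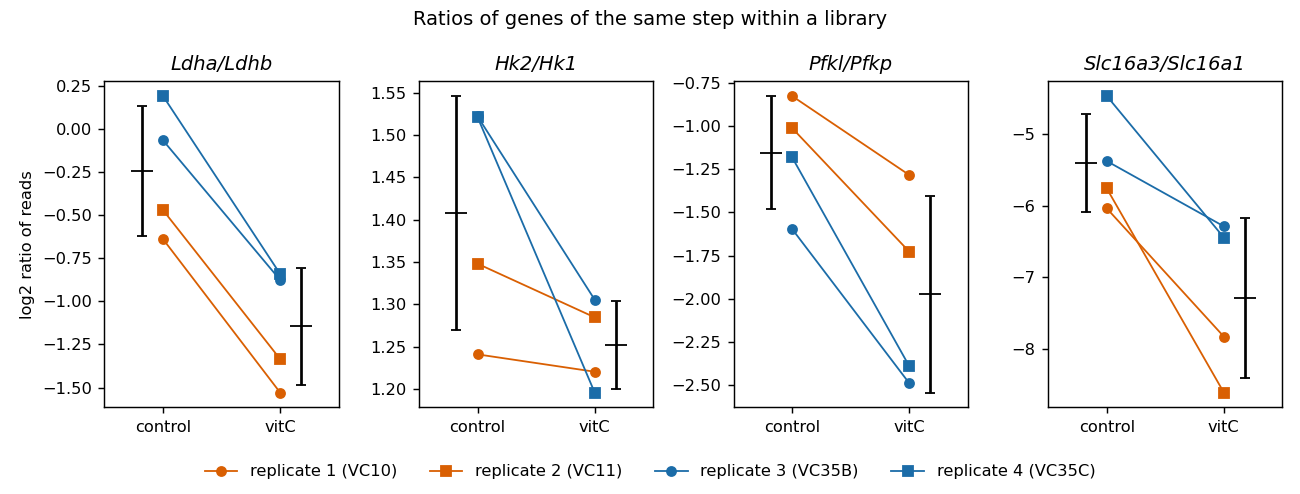
Log2 ratio of recovered reads (y axis, 1 scale per ratio, not from 0) of 2 genes of the same step within each mESC library, with lines joining the pairs and black bars for the mean ± SD of 4 libraries. All 4 ratios fall in each pair, and control and vitC values are apart for Ldha/Ldhb and Slc16a3/Slc16a1.

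Levels can be compared between genes only per length. The length used joins the exons of all transcripts of a gene in GENCODE vM21, such as 1982 bases for Pgam1 and 5379 for Eno1. It can exceed the transcript that the cells made, so the order of the genes also depends on the annotation. Divided by this length, the controls were highest for Aldoa at 240 ± 43.3 RPKM (RPM per kilobase) and for Pgam1 at 161 ± 15.7 RPKM (SD, n = 4), whose ranges did not overlap. Eno1 (90.9 RPKM), Ldha (87.6), Hk2 (83.8), Tpi1 (66.9) and Pgk1 (61.7) followed, and each of them overlapped with the next. Gpi1 at 43.3, Pfkl at 13.1 and Slc16a3 at 0.936 ± 0.718 RPKM were apart from their neighbours. In vitC libraries Ldha was at 49.9 ± 5.23 RPKM, between Tpi1 (49.6) and Pgk1 (50.8). Outside the 10, the controls of Pkm were at 254 RPKM, those of Ldhb at 218 and those of Gapdh at 44.7. Many glycolytic genes have processed pseudogenes, and how reads shared with them were counted is not given in the sources used here.

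The 10 genes varied between cultures as well as with vitC. With treatment in the fit, VC35B and VC35C differed from VC10 and VC11 at the threshold for 9 of the 10 genes, beside 40.5% of all tested genes. That fit had no term for the culture and counted the control and vitC libraries of a culture as separate. Its standard errors and calls therefore do not measure the spread between cultures. VC10 and VC11 were grouped from earlier results of these data. Aldoa was higher in the VC35 cultures by 0.41 (standard error 0.04), Slc16a3 by 0.38, Tpi1 by 0.36, Pgk1 by 0.31, Eno1 by 0.27, Pgam1 by 0.25 and Ldha by 0.23. Hk2 and Gpi1 were lower there, with differences of -0.21 and -0.19, and Pfkl differed by -0.06 (limma adjusted p = 0.484). For 9 of the genes, the sign of the culture difference was thus opposite to that with vitC, Pfkl being the exception. rRNA repeats took 42.0% to 51.5% of repeat counts in VC10 and VC11 libraries and 60.0% to 63.1% in VC35 libraries, and the part of this in the culture difference was not tested. Over the 8 libraries Hk2 and Gpi1 went together (Pearson r = 0.93) and Hk2 had a negative r with each of the other 8 genes, from -0.87 for Aldoa to -0.23 for Pfkl.

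**Figure D4:**
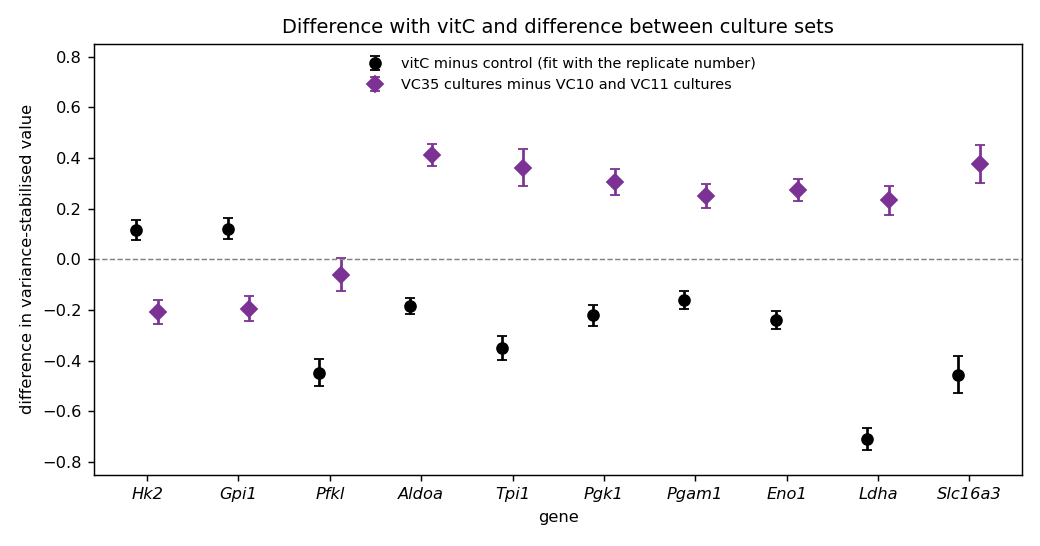
Difference in variance-stabilised value (y axis) with vitC (black circles, fit with the replicate number) and between the VC35 cultures and VC10 and VC11 (purple diamonds, treatment in the fit) for each of the 10 genes, with bars for the standard error. The bars of the diamonds do not allow for libraries that share a culture. The 2 differences have opposite signs for 9 genes and the same sign for Pfkl, where the culture difference was -0.06.

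The difference with vitC was seen in both sets. Within VC10 and VC11 it was -0.67 for Ldha, -0.34 for Pfkl, -0.39 for Slc16a3 and -0.29 for Tpi1, and within VC35B and VC35C it was -0.74, -0.55, -0.52 and -0.41. For Hk2 it was 0.18 and 0.05 and for Gpi1 0.18 and 0.06. The difference of none of the 10 genes depended on the set at the threshold (limma interaction, adjusted p of each = 0.9997), in a test that passed 0 of 14631 genes (601 at an unadjusted p under 0.05), while edgeR on recovered reads also passed 0 and limma with the replicate number as a term passed 13.

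Genes around the pathway are described by lists chosen for their function, and 0 of them passed the threshold between the 2 groups. Their counts in the paired fit stand beside 6.36% of all genes higher and 4.44% lower, which in a list of 16 genes comes to about 1 gene each way. Among 9 tested carriers of glucose, pyruvate and lactate, Slc16a1 was lower and 0 were higher. The glucose carriers Slc2a1 and Slc2a3 were at 93.1% and 100.5% of control, and Bsg, the partner protein of MCT1 and MCT4, at 92.6%. Of 5 genes that set the level of fructose 2,6-bisphosphate, the activator of phosphofructokinase, Pfkfb3 was lower, at 69.4% of control (limma adjusted p = 0.0216). Pfkfb2 was higher, at 128.6% (limma adjusted p = 0.0478). Their recovered reads, before correction for size factors, were 295 in control and 170 in vitC libraries for Pfkfb3 and 866 and 994 for Pfkfb2. Of 12 genes of pyruvate dehydrogenase, its regulators and pyruvate carboxylase, 4 were higher and 0 lower: the subunit gene Pdhb, the phosphatase gene Pdp2, the kinase gene Pdk1 and the carboxylase gene Pcx, at 110.6% to 132% of control. Of 7 pentose phosphate genes, Rpe and Pgd were higher, at 142% and 116% of control. The tricarboxylic acid cycle had 2 of 16 genes higher, Ogdh and Sucla2, both at 121%. Of 12 tested genes of gluconeogenesis and glycogen, Ugp2 was higher at 121% and Fbp1 lower, with 18 reads in control and 2 in vitC libraries. The median differences of these lists lay between -0.08 and 0.05. Of 4 tested testis or copied forms, 0 passed.

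Known HIF targets outside glycolysis were a further list of 20 genes, such as Vegfa, Bnip3 and Egln3, of which 18 were tested. In the paired fit 0 were lower and 0 higher, and their differences ranged from -0.20 to 0.08 with a median of -0.08. These counts cover this list only. Pfkfb3, lower in that fit at 69.4% of control, and Pdk1, higher at 110.6%, were counted in the lists above.

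In the hESC libraries, with 15367652 recovered reads in control and 17188555 with vitC, 0 of the 10 genes differed by at least 1.5-fold, beside 5.59% of the 13584 genes with a mean of 20 reads or more. There is 1 library per group, so no test was made, and intervals (exact, 95%) cover counting error only. The median log2 ratio of the 10, scaled by the median ratio of genes, was 0.00. LDHA had 12175 reads in control and 14069 with vitC, a log2 ratio of 0.03 (interval -0.00 to 0.07). SLC16A3 had 125 and 145 reads, a log2 ratio of 0.04 (interval -0.32 to 0.39). ENO1, the most read of the 10, had 43927 and 49824 reads and a log2 ratio of 0.00. TPI1, at 0.09, had an interval above 0, and HK2 at -0.18, GPI at -0.09 and ALDOA at -0.09 had intervals below it. The middle 90% of genes lay between -0.40 and 0.46. The mESC and hESC libraries differ in species, medium and number of replicates, and the difference between their responses was not tested. Pluripotency genes were read in both hESC libraries, with 1034 and 1173 reads of POU5F1 and 5423 and 6083 of SOX2. Of the fibroblast genes, 5 of 6 had reads too, from 7 and 17 for LUM, 96 and 95 for POSTN and 133 and 142 for COL3A1 to 6443 and 6542 for COL1A2 and 18164 and 18881 for COL1A1, with DCN at 0.

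**Figure D5:**
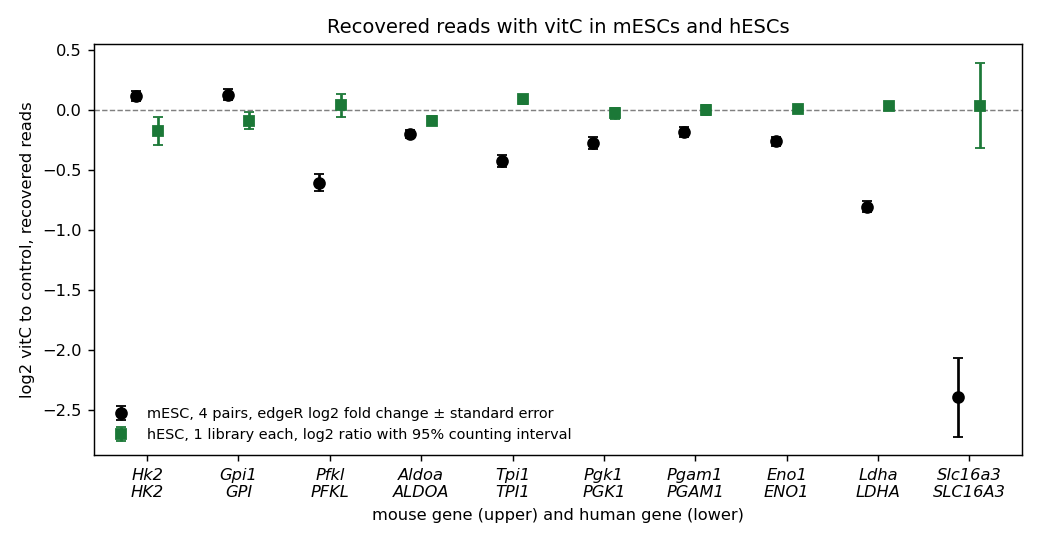
Log2 of vitC to control on recovered reads (y axis) for the 10 genes, in mESCs (black circles, 4 pairs, edgeR with the replicate number as a term, bars for the standard error) and in hESCs (green squares, 1 library each, bars for the 95% counting interval). The mESC values run from -2.39 for Slc16a3 to 0.13 for Gpi1, and the hESC values from -0.18 for HK2 to 0.09 for TPI1.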

How the data were processed

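RNA-seq was measured in 8 mESC and 2 hESC libraries. The study's methods give rRNA depletion, while the labels name depletion or mRNA isolation. Per the labels and methods, reads were mapped to mm10 or hg38 and counted with SQuIRE, and the processing notes name Trim Galore, HISAT2 and DESeq2. The authors deposited variance-stabilised gene values on a log2-like scale. They also deposited expected counts of repeat subfamilies, used here only for the rRNA share. 4 other columns of per-sample values were not used.

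The transformation was inverted, which gave whole reads (within 0.05 of a read) for 100% of the values above the lowest. limma 3.58.1 (lmFit, eBayes with a trend) was run in R 4.3.3 on genes that exceeded the table minimum in 4 or more libraries. Alternatives were edgeR 4.0.16 and DESeq2 1.42.0 on recovered reads, the replicate number as a term, other filters, quantile normalization and left-out libraries. edgeR standard errors were derived from its F statistic. A control and a vitC library that share a number share the culture label too, and they deviated together (correlations of 0.626 to 0.765), so the numbers pair the libraries. Nothing states that cultures were independent, so p-values measure the spread between these libraries. The pairs VC10 and VC11 were grouped from earlier results of these data.

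The 10 genes, the gene lists and the markers were chosen with earlier results of these data known. Named genes are the 10, Gapdh, Pkm, the ratio partners, list genes past the threshold in either fit, and the 5 genes most like Ldha or the mean of the 10. 1 gene of the primed marker list is not reported here. Scripts were tested on simulated data.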

Additional observations from a re-analysis of the deposited data

How the results depend on the processing

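The 10 differences in mESCs kept their direction in all 230 combinations of gene and alternative. Among them, 171 stayed on the same side of the threshold, 53 passed it only in the alternative and 6, all for Ldha, no longer passed it. Beside 1 of the 10 genes past the threshold in limma without the replicate number, 8 were past it with the replicate block, 10 in edgeR with the block (8 lower, 2 higher), 2 in DESeq2, 8 in DESeq2 with the block and 0 with replicates 3 and 4 only. Over all tested genes, lower calls were 0.0205% in limma without the replicate number and 4.44% with the block. They were 6.07% in edgeR with the block (higher calls 7.24%), 0.123% in DESeq2 and 1.11% in DESeq2 with the block. With 1 library left out the count among the 10 was 0 to 1, and with a pair left out under the block, chosen after seeing the data, it was 8 to 9. The cause was not tested. The block is a paired sign-flip test for the ratios, and the 4 pairs allow no p below 0.125, which all 4 ratios reached. The difference in log2 ratio, vitC minus control, was -0.90 for Ldha/Ldhb and -1.89 for Slc16a3/Slc16a1. The latter was -0.97 with a pseudocount of 5 and -0.048 on the deposited values (exact permutation p = 0.543), a scale that compresses genes with few reads. With 1 library left out, these differences ranged from -1.03 to -0.76 (Ldha/Ldhb), -0.21 to -0.12 (Hk2/Hk1), -1.05 to -0.65 (Pfkl/Pfkp) and -2.22 to -1.45 (Slc16a3/Slc16a1). Among the 10, the count of 0 whose difference depended on the culture set and the count of 0 at 1.5-fold in hESCs were the same under their alternatives, while no alternative was run for the difference between culture sets. Depth limits Slc16a3 most, with 17 reads over the vitC libraries.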
